A study of Mus musculus with 15 samples.

Results

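Primary neurons (PN) were compared with cultured astrocytes (D0) over 12998 genes, those that reached 1 FPKM in 3 or more of the 6 libraries of these groups, out of 24346 genes in the table. FPKM, fragments per kilobase of transcript scaled to the fragments of the library, is a level corrected for gene length. Each group had 3 libraries of total RNA from brain cells of C57BL/6 mice, sequenced as paired reads of 150 bases. The study converted astrocytes into neurons with chemicals. Its D0 libraries are the astrocytes at the start, its PN libraries are ordinary neurons, and 9 further libraries of converted cells entered the shared estimate of the spread and the choice of genes tested. No genotype, transgene or treatment is given for PN or D0, and neither are brain region, age, sex, culture time or purification. The labels do not say whether the libraries of a group came from separate cultures, so the p-values below measure the spread between these libraries, which may be technical.

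Neurons and astrocytes both descend from radial glia of the embryonic brain. Neurons leave the cell cycle, build axons on bundled microtubules and release transmitter from vesicles that fuse through SNARE proteins, while voltage-gated channels carry their action potentials. Astrocytes take up glutamate and potassium, are coupled by gap junctions and keep the capacity to divide. In flat culture they are known to spread on actin stress fibres and to take on parts of a reactive, injury-like programme. In cells other than neurons, the repressor REST is known to bind a DNA element named RE1 beside neuronal genes, and the splicing repressor PTBP1 to hold back neuronal exons.

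Total FPKM ran from 548309 to 619212 in PN and from 603944 to 703459 in D0, and 11861 to 12443 genes per library reached 1 FPKM. Read totals are not given in the table. The steps between low values put the depth of the D0 libraries at 0.449 to 0.793 of the first PN library, so that 1 read weighed more in D0. Within a group, libraries had Pearson correlations of 0.966 to 0.981 on the log2(FPKM + 1) scale, taken across genes, which are not independent replicates. The third PN library stood apart: it correlated with the D0 libraries at 0.733 to 0.744, against 0.647 to 0.671 for the other PN libraries. It was the highest PN library for 63.8% of the genes that were lower in PN and the lowest for 65.4% of those that were higher. Some list counts and some changes of single genes are also given without it, while the other values rest on all PN libraries. In the lists below, leaving it out left 37 of 40 presynaptic genes higher, and 49 of 50 cell cycle genes, 19 of 21 contractile genes and 34 of 38 matrix genes lower.

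The labels were checked against marker lists. All 12 neuronal markers were higher in PN, with a summed level of 5110, 5760 and 4140 FPKM in PN, against 379, 435 and 474 FPKM in D0. Of 10 astrocyte markers that passed the filter, 7 were lower in PN, with sums of 186, 351 and 272 FPKM in PN, against 1030, 739 and 1710 FPKM in D0. Astrocyte markers were thus far from absent in PN, and the mature astrocyte markers Gjb6 and Slc7a10 were below the filter in both groups, with Gjb6 at 0 in all D0 libraries. In D0 the neuronal sum came mostly from Stmn2, a stathmin of growing axons, at 1157, 1547 and 911 FPKM in PN, against 248.6, 346 and 318 FPKM in D0.

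**Figure D1:**
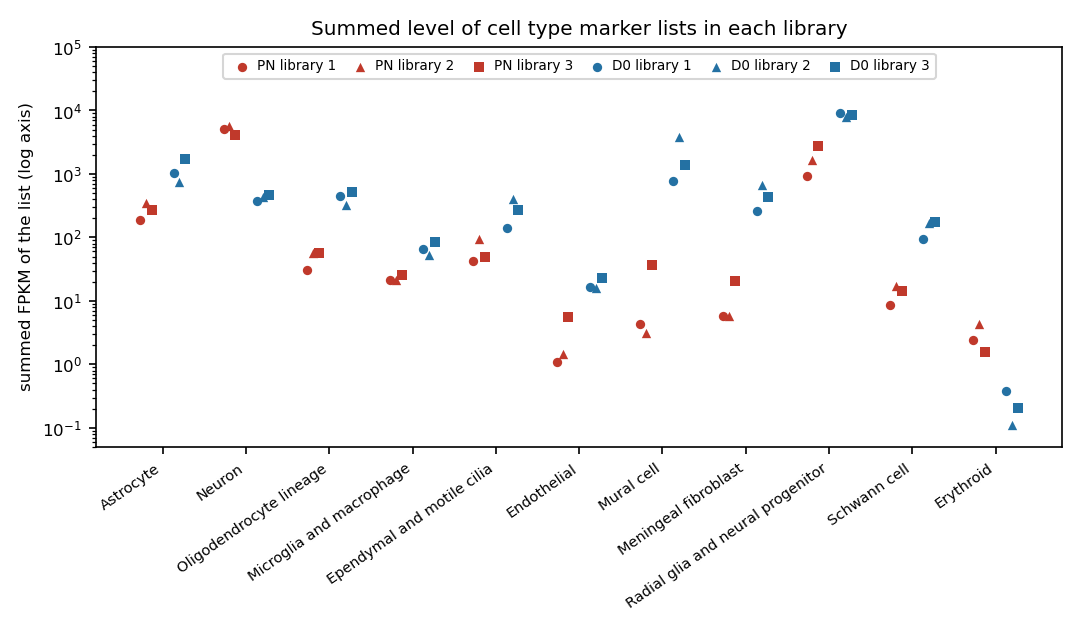
Summed FPKM of marker lists (log axis) in each PN library, left, and each D0 library, right, of each pair. The neuronal sums stand at 4140 to 5760 FPKM in PN and 379 to 474 FPKM in D0, and the third PN library (square) is the highest PN library for the mural, fibroblast, endothelial and progenitor lists.

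Markers of other cells also differed. Of 5 mural cell markers that passed the filter 4 were lower in PN, Acta2 among them, and the list summed to 4.38, 3.13 and 36.4 FPKM in PN, against 767, 3780 and 1370 FPKM in D0. Nearly all of the D0 sum was Acta2, at 749.8, 3761 and 1339 FPKM in D0. Of 7 meningeal fibroblast markers 5 were lower and 1, Dcn, was higher. The list summed to 5.80, 5.88 and 20.3 FPKM in PN, against 259, 663 and 433 FPKM in D0. Fmod and Col1a1, both also listed below with matrix genes, made up most of this D0 sum. The fibroblast markers Lum and Slc6a13 were at 0 in all D0 libraries. Of 14 radial glia and progenitor markers 8 were lower and 3 higher, with sums of 923, 1680 and 2720 FPKM in PN, against 9230, 7800 and 8580 FPKM in D0. Most of this D0 sum was Vim, also listed below with astrocyte genes, at 7012, 5953 and 6053 FPKM in D0. Most of the rest was Fabp7, which was not called. Of 15 oligodendrocyte lineage markers 10 were below the filter. Of the other 5, 4 were lower and 1, the myelin gene Mbp, was higher. The list summed to 30.3, 55.8 and 55.8 FPKM in PN, against 455, 327 and 525 FPKM in D0. Olig1, Olig2 and Cnp made up nearly all of this D0 sum, and Olig1 and Olig2 are also given below with glial factors. Mog and Opalin were at 0 in all D0 libraries. Of 7 microglia markers 2 were lower, 1 higher and 4 not called, with sums of 21.4, 21.2 and 26.0 FPKM in PN, against 66.8, 53.4 and 84.8 FPKM in D0. Without the second D0 library 5 of the 7 were lower. Endothelial sums were 1.09, 1.47 and 5.48 FPKM in PN, against 16.4, 15.8 and 22.8 FPKM in D0, with Tie1 at 0 in all 6 libraries. Ependymal sums were 42.2, 95.1 and 49.6 FPKM in PN, against 142, 402 and 269 FPKM in D0. Of 8 Schwann cell markers 2 passed the filter and 1 was lower. The list summed to 8.73, 17.0 and 14.2 FPKM in PN, against 95.7, 168 and 172 FPKM in D0. Nearly all of this D0 sum was Pmp22, at 91.3, 163 and 165 FPKM in D0. Erythroid genes summed to 2.40, 4.36 and 1.59 FPKM in PN, against 0.378, 0.110 and 0.204 FPKM in D0. In bulk RNA, fewer cells of a type and less RNA per cell cannot be told apart, and the part of these cells in the results below was not tested.

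Of the 12998 genes, 2348 were higher in PN (18.1%) and 3289 were lower (25.3%), or 43.4% in all. Over all 13983 genes tested, 17.1% were higher and 23.9% lower, or 41.0%, and the counts for gene lists below are to be read against these shares. A gene was called at a limma adjusted p (Benjamini-Hochberg) below 0.05 and a change of at least 1 on the log2(FPKM + 1) scale, a scale on which changes of low genes come out too small. Changes are PN minus D0 on that scale, with standard errors. PN and D0 libraries did not overlap for 9106 of the 12998 genes (70.1%), and for 5564 of the 5637 genes called. Statements on overlap below are to be read against these shares. The median change over all 12998 genes was -0.13. Rescaling the libraries to equal totals moved it to 0.00, and quantile normalization to 0.03, with 2623 higher and 3014 lower and with 2572 higher and 2807 lower. No gene was called in the opposite direction under any alternative. Without the third PN library 2449 genes were higher and 3385 lower. Changes of at least 3 were found for 567 higher and 626 lower genes, and of at least 5 for 101 higher and 74 lower genes.

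Part of this count follows from how the genes were chosen. Of the 731 genes that reached 1 FPKM in all PN and no D0 libraries, 690 were called higher, and of the 740 that did so in all D0 and no PN libraries, 670 were called lower. Among the 10279 genes at 1 FPKM or more in all 6 libraries, 1348 were higher and 2086 lower in PN, or 33.4%. At the edge of the rule stood Syna and Gm16596, whose third-highest values were 1.002 and 1.003 FPKM. Just outside it stood 3110082J24Rik, Cdr1 and Cxcl16, at 0.9997, 0.9981 and 0.998 FPKM.

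**Figure D2:**
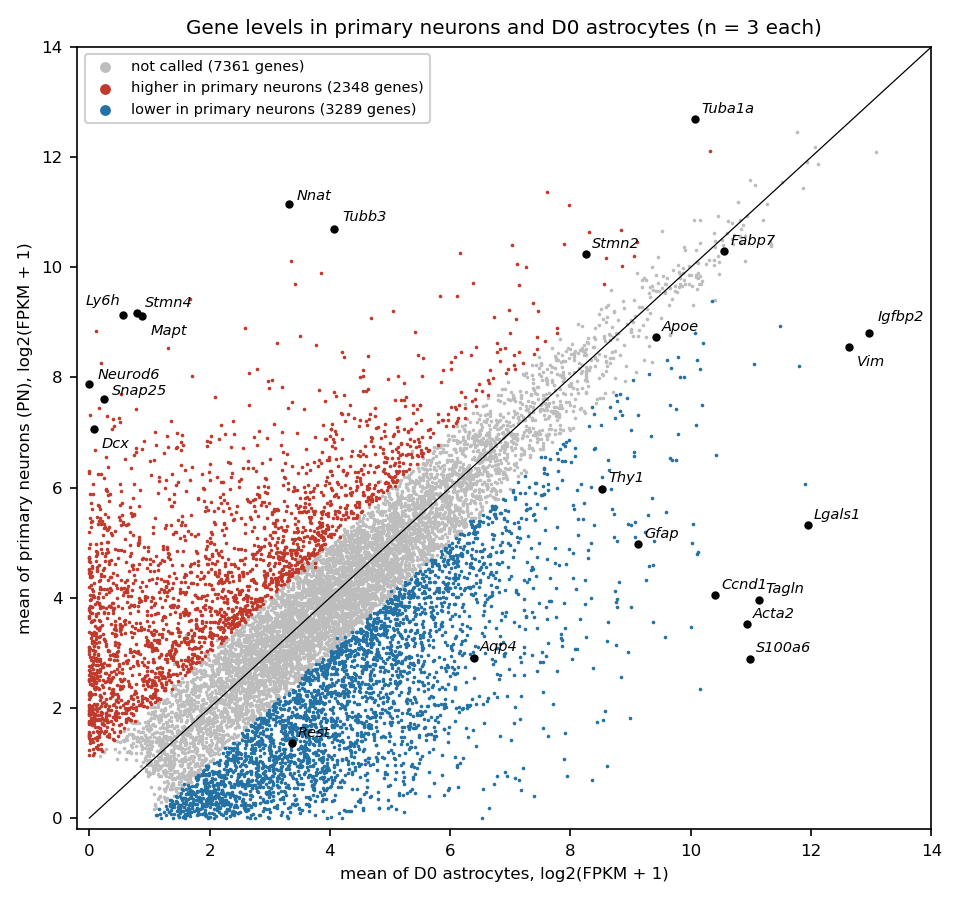
Mean level of each of the 12998 genes in PN (vertical axis) against D0 (horizontal axis), both as log2(FPKM + 1), n = 3 libraries each, with the line of equal levels. The 2348 genes higher in PN (red) include many that lie at the left edge, near 0 in D0, and the 3289 lower genes (blue) include several above 1000 FPKM in D0.

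The largest increase was that of Ly6h, a surface protein of the Ly6 family known to modulate nicotinic receptors (chr15:75564745-75569470), with 646, 550.1 and 486 FPKM in PN, against 0.173, 0.0946 and 1.18 FPKM in D0 (8.63 ± 0.33, adjusted p = 2.0e-11). The largest decrease was that of Acta2, followed by Tagln, both described with the contractile genes. After these stood 2 calcium-binding proteins of the S100 family. S100a6 had 3.74, 8.20 and 7.39 FPKM in PN, against 2423, 2166 and 1494 FPKM in D0 (-8.12 ± 0.35, adjusted p = 5.9e-11). S100a4 had 4.67, 3.56 and 3.98 FPKM in PN, against 1650, 1123 and 650.5 FPKM in D0 (-7.72 ± 0.35, adjusted p = 9.9e-11). Both were at most 8.20 FPKM in PN. Serpinf1, the secreted factor PEDF, averaged 2.52 ± 3.09 FPKM in PN and 508 ± 383 FPKM in D0 (-7.22 ± 0.66). The abundant actin-binding thymosins split: Tmsb10 was higher (1.81 ± 0.28, adjusted p = 3.6e-05), while Tmsb4x, the gene with the highest mean level in D0, was not called, at 3623, 4642 and 4874 FPKM in PN, against 7397, 11910.0 and 6729 FPKM in D0.

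The genes of the microtubule and neurofilament skeleton and of axon growth were among the most changed. Of 42 that passed the filter, 38 were higher in PN, 1 was lower and 3 were not called, with a median change of 3.09. Tubb3, the neuron-specific beta-tubulin (chr8:123411553-123422015), had 1701, 1647 and 1633 FPKM in PN, against 8.03, 6.62 and 32.6 FPKM in D0. Every PN library stood above every D0 library, and the change was 6.97 ± 0.39, adjusted p = 7.9e-10. Stmn4, a stathmin that binds tubulin (chr14:66344210-66361680), had 566, 626 and 535 FPKM in PN, against 0.445, 0.434 and 1.32 FPKM in D0, a change of 8.41 ± 0.27, adjusted p = 3.6e-12. Mapt, the axonal tau protein, had 623, 506 and 537 FPKM in PN, against 0.521, 0.581 and 1.43 FPKM in D0 (8.27 ± 0.29, adjusted p = 8.6e-12). Dcx, the doublecortin of migrating neurons, had 115, 153 and 129.8 FPKM in PN, against 0.0706, 0.0345 and 0.0489 FPKM in D0 (6.98 ± 0.15, adjusted p = 1.0e-13). Stmn4, Mapt and Dcx were thus near 0 in D0 and above 100 FPKM in all PN libraries.

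Other members of this group had a D0 level of their own. Tuba1a, an alpha-tubulin and the gene with the highest mean level in PN, averaged 6597 ± 476 FPKM in PN and 1079 ± 238 FPKM in D0 (SD, n = 3 each), a change of 2.63 ± 0.31. Stmn2 was higher by 1.96 ± 0.20, adjusted p = 4.0e-07. Crmp1, a collapsin response mediator of growth cones, averaged 688 ± 65.0 FPKM in PN and 2.20 ± 1.51 FPKM in D0, and the neurofilament gene Nefl 105 ± 48.8 FPKM in PN and 4.90 ± 3.82 FPKM in D0. The spectrin gene Sptan1 was not called, at 236, 219 and 203 FPKM in PN, against 281, 193 and 203 FPKM in D0, and its values overlapped between the groups. Thy1, a surface glycoprotein used as a marker of neurons, was the single gene that was lower, at 38.1, 124 and 24.9 FPKM in PN, against 279.5, 449 and 372 FPKM in D0 (-2.85 ± 0.42, adjusted p = 2.4e-05).

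Vesicle release genes were higher almost without exception. PN had 37 of 40 presynaptic genes higher, 0 lower and 3 without a call (median change 3.71). Snap25, the neuronal SNARE of the plasma membrane (chr2:136713439-136782428), had 184, 283 and 118 FPKM in PN, against 0.516, 0.0324 and 0 FPKM in D0 (7.31 ± 0.27, adjusted p = 1.2e-11). Syt4, a synaptotagmin, had 269, 182 and 167 FPKM in PN, against 0.89, 0.066 and 0.381 FPKM in D0 (7.17 ± 0.20, adjusted p = 1.9e-12). The complexin Cplx1 and the synuclein Sncb, both proteins of the nerve terminal, changed by 6.66 ± 0.21 and 6.65 ± 0.18. Groups did not overlap for any of these 4 genes, as for 70.1% of all genes compared. The third PN library was the lowest PN library for 34 of the 40. Synaptophysin (Syp), the major vesicle membrane protein, averaged 259 ± 88.7 FPKM in PN and 2.27 ± 0.907 FPKM in D0. Syt11, Rims2 and Unc13b were not called. Syt11 had 118, 141 and 91.8 FPKM in PN, against 104, 59.2 and 159.7 FPKM in D0, with overlapping values.

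On the receiving side, 50 of 55 receptor and scaffold genes were higher, 1 was lower and 4 were without a call (median change 2.56). Grin1, the obligatory NMDA receptor subunit, had 79.3, 59.6 and 45.5 FPKM in PN, against 0.171, 0.172 and 0.305 FPKM in D0 (5.65 ± 0.24, adjusted p = 5.7e-11). The GABA-A receptor subunit Gabra5 had 88.5, 93.3 and 62.9 FPKM in PN, against 0.326, 0.174 and 0.221 FPKM in D0 (6.04 ± 0.22, adjusted p = 9.7e-12). Glra2, a glycine receptor subunit of immature neurons, had 20.8, 17.5 and 24.6 FPKM in PN, against values listed at 0 in all D0 libraries. The scaffold genes Dlg2 (5.54 ± 0.24) and Dlgap3 (5.08 ± 0.30) were also higher. Among AMPA receptor subunits the direction was split: Gria1, Gria2 and Gria4 were higher, while Gria3 was lower, at 7.13, 12.9 and 6.97 FPKM in PN, against 25.03, 21.7 and 27.4 FPKM in D0 (-1.41 ± 0.25, adjusted p = 1.5e-04). Arc, Cacng8, Grik5 and Nptx1 were not called.

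Of 42 voltage-gated channel and pump genes, PN had 34 higher, 2 lower and 6 without a call (median change 2.21). Hcn3, a pacemaker channel, had 25.02, 23.2 and 13.6 FPKM in PN, against 0.321, 0.06 and 0.071 FPKM in D0 (4.19 ± 0.21, adjusted p = 2.7e-10). Atp2b2, a plasma membrane calcium pump, had 24.2, 20.8 and 12.1 FPKM in PN, against 0.357, 0.0542 and 0.312 FPKM in D0 (3.97 ± 0.30, adjusted p = 1.8e-08). The chloride importer Slc12a2 was among the lower genes, at 6.37, 6.39 and 8.37 FPKM in PN, against 16.7, 13.1 and 17.1 FPKM in D0 (-1.05 ± 0.17, adjusted p = 5.2e-05). Slc12a2 was not called without the first PN library, the second PN library or the third D0 library (changes of -0.99, -0.99 and -0.98), nor with equal totals or quantile normalization (-0.92 and -0.84). The adult neuronal chloride extruder Slc12a5 took the other direction, at 22.3, 34.2 and 12.4 FPKM in PN, against 0.685, 0.271 and 0.961 FPKM in D0.

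Genes of both main transmitter types were present in PN. Of 36 glutamatergic and cortical projection neuron genes 20 were higher, 1 lower and 15 not called (median change 1.81), and of 31 GABAergic and interneuron genes 23 were higher, 2 lower and 6 not called (median 2.67). The vesicular glutamate transporter Slc17a7 had 38.4, 69.1 and 16.3 FPKM in PN, against 0.163, 0.179 and 0 FPKM in D0 (5.03 ± 0.36, adjusted p = 9.6e-09). Its relative Slc17a6 had 18.4, 22.9 and 10.99 FPKM in PN, against values listed at 0 in all D0 libraries. The GABA-synthesising enzyme Gad1 had 50.5, 75.5 and 37.2 FPKM in PN, against 1.39, 0.951 and 2.19 FPKM in D0 (4.44 ± 0.46, adjusted p = 5.5e-07). The vesicular GABA transporter Slc32a1 had 25.6, 33.5 and 14.1 FPKM in PN, against values listed at 0 in all D0 libraries. PN and D0 did not overlap for these 4 genes, and the third PN library was the lowest PN library for each.

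The transcription factor Neurod6 of cortical projection neurons (chr6:55677818-55681263) had 270.4, 246 and 191 FPKM in PN, against values listed at 0 in all D0 libraries. Neurod2, of the same family, had 92.7, 57.6 and 77.9 FPKM in PN, against values listed at 0 in all D0 libraries. Mpped1, a phosphodiesterase gene, averaged 159 ± 64.2 FPKM in PN and 0.00669 ± 0.0116 FPKM in D0. Lhx6, a factor of interneurons from the medial ganglionic eminence, had 13.4, 15.9 and 13.2 FPKM in PN, against 0.0299, 0.205 and 0.0342 FPKM in D0 (3.80 ± 0.19, adjusted p = 2.7e-10). Layer markers were mixed: Bcl11b changed by 2.90 ± 0.19, while Foxp1, Cux1 and Tle4 were not called. Zbtb20 was lower (-1.35 ± 0.22, adjusted p = 7.3e-05). Among the interneuron genes Nkx2-1 (-1.86 ± 0.44) and Six3 (-3.78 ± 0.22), factors of the ventral forebrain, were lower in PN.

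Peptide and granule genes were higher in 18 of 24, lower in 0 and not called in 6, with a median change of 2.42. Sst, the somatostatin gene (chr16:23889573-23891342), had 982, 154 and 231 FPKM in PN, against 0.247, 0 and 0 FPKM in D0 (8.25 ± 0.56, adjusted p = 4.8e-09). Its level varied widely within PN, with the first library far above the others. Cck, cholecystokinin, had 288, 589 and 238 FPKM in PN, against 1.57, 1.13 and 1.75 FPKM in D0 (7.12 ± 0.31, adjusted p = 7.1e-11). Nnat, the imprinted neuronatin gene, averaged 2274 ± 325 FPKM in PN and 8.95 ± 4.29 FPKM in D0 (7.95 ± 0.32). Cpe and Pam, enzymes that finish peptide hormones, were not called, with Cpe at 570.3, 889.9 and 453 FPKM in PN, against 1074, 931 and 1126 FPKM in D0.

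Among 36 RNA-binding and splicing genes 17 were higher, 7 lower and 12 not called (median 0.91). Elavl3, a neuronal RNA-binding protein, had 120, 119 and 104 FPKM in PN, against 3.37, 1.27 and 3.98 FPKM in D0 (4.97 ± 0.22, adjusted p = 8.7e-11). Celf3, a splicing factor, averaged 74.7 ± 7.18 FPKM in PN and 0.148 ± 0.219 FPKM in D0. Rbfox3, the NeuN antigen and a splicing factor, had 54.0, 70.3 and 26.1 FPKM in PN, against 0.0343, 0.0844 and 0.194 FPKM in D0 (5.42 ± 0.26, adjusted p = 1.8e-10). The widely expressed relative Elavl1 was not called, at 17.7, 14.1 and 16.6 FPKM in PN, against 16.7, 16.5 and 14.99 FPKM in D0, values that overlapped. Ptbp1, the repressor of neuronal exons (chr10:79854432-79864435), was lower, at 14.1, 11.2 and 32.6 FPKM in PN, against 124, 128 and 122.6 FPKM in D0 (-2.78 ± 0.26, adjusted p = 1.7e-07). Its neuronal relative Ptbp2 was higher, at 61.1, 74.4 and 69.1 FPKM in PN, against 16.9, 10.01 and 15.9 FPKM in D0 (2.21 ± 0.28, adjusted p = 5.4e-06). The other lower genes were Mbnl1, Mbnl2, Qk, Msi1, Msi2 and Cpeb1, among them Mbnl2 at -2.40 ± 0.21 and Msi2, a Musashi protein of progenitors, at -2.36 ± 0.17. Msi1 was not called without the second PN library or the third D0 library (changes of -0.81 and -0.86), nor with equal totals or quantile normalization (-0.90 and -0.87).

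Proneural and neuronal transcription factors were higher in 20 of 33, lower in 2 and not called in 11 (median 1.61). Bhlhe22, a basic helix-loop-helix factor of cortical neurons, had 174, 213 and 214 FPKM in PN, against 5.32, 1.78 and 2.62 FPKM in D0 (5.65 ± 0.24, adjusted p = 4.6e-11). Myt1l, a factor that holds neuronal identity by repressing other fates, had 42.6, 45.7 and 25.2 FPKM in PN, against 0.0385, 0.0175 and 0 FPKM in D0 (5.21 ± 0.21, adjusted p = 2.7e-11). Scrt1, a neuronal zinc-finger repressor, averaged 24.0 ± 6.54 FPKM in PN and 0.0107 ± 0.0185 FPKM in D0. Sox11, active in young neurons, averaged 52.5 ± 11.9 FPKM in PN and 6.495 ± 1.89 FPKM in D0. Zeb1 (-1.86 ± 0.20) and Npas3 (-1.88 ± 0.27) were lower.

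Glial and progenitor factors took the opposite direction, with 29 of 47 lower, 4 higher and 14 not called (median -2.0). The inhibitor of differentiation genes Id3 and Id1, targets of BMP signals, were lower. Id3 had 4.54, 6.60 and 58.5 FPKM in PN, against 522, 702 and 768 FPKM in D0 (-5.59 ± 0.64, adjusted p = 1.5e-06). Id1 averaged 16.4 ± 21.3 FPKM in PN and 425 ± 84.5 FPKM in D0. For Id3 the third PN library stood well above the other PN libraries and far below each D0 library. Sox2, a factor of neural stem cells and astrocytes, had 16.8, 20.6 and 30.5 FPKM in PN, against 169, 138 and 183 FPKM in D0 (-2.83 ± 0.29, adjusted p = 5.5e-07). Olig1 (-3.38 ± 0.39), Olig2 (-3.29 ± 0.42), Hes1 (-3.35 ± 0.53) and the BMP inhibitor Smad6 (-4.83 ± 0.30) were lower too. The 4 higher genes were Hes5, Hopx, Dll1 and Nfix. Nfix was not called without the first PN library, the third PN library or the first D0 library (changes of 0.93, 0.90 and 0.92). Hes5, a Notch target of radial glia, had 6.31, 7.50 and 6.95 FPKM in PN, against 1.54, 0.238 and 0.634 FPKM in D0 (2.20 ± 0.22, adjusted p = 3.5e-07), in the opposite direction to Hes1. Fabp7, the brain lipid-binding protein of radial glia and astrocytes, was not called, at 625, 1428 and 1696 FPKM in PN, against 1454, 1198 and 1844 FPKM in D0, values that overlapped.

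Rest itself (chr5:77265494-77286432) was lower in PN, at 1.35, 1.08 and 2.30 FPKM in PN, against 11.7, 6.81 and 9.41 FPKM in D0 (-2.0 ± 0.28, adjusted p = 1.4e-05). Of 53 genes of the REST, BAF, Polycomb and other chromatin complexes 17 were higher, 10 lower and 26 not called (median 0.45). The subunits that neurons are known to exchange in the BAF remodelling complex differed as pairs. Actl6b, the neuronal subunit, had 88.0, 102 and 116 FPKM in PN, against 0.202, 0 and 0 FPKM in D0. Actl6a, the progenitor subunit, had 7.26, 6.32 and 14.9 FPKM in PN, against 41.6, 41.1 and 34.9 FPKM in D0. Ss18l1 changed by 3.08 ± 0.20, adjusted p = 3.0e-09 and Ss18 by -2.28 ± 0.17, adjusted p = 1.5e-08. Chd5, a chromatin remodeller of neurons, averaged 31.0 ± 3.58 FPKM in PN and 0.746 ± 0.671 FPKM in D0. Hmga2, an architectural protein of dividing progenitors, had 0.0121, 0 and 0.222 FPKM in PN, against 79.8, 2.94 and 26.4 FPKM in D0 (-4.26 ± 0.71, adjusted p = 7.9e-05). The linker histone gene Hist1h1c varied widely within PN, at 92.5, 22.2 and 6.42 FPKM in PN, against 48.9, 128 and 100.4 FPKM in D0 (-1.78 ± 0.61, adjusted p = 0.018), and its groups overlapped. Hist1h1c was not called without the third PN library, the second D0 library or the third D0 library (changes of -0.90, -1.49 and -1.67), nor in the 6 libraries alone (limma adjusted p of 0.077).

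The RE1 element was looked for in reference promoters, 300 bases around each gene start. Searched on both strands without mismatch as CAGCACC, any 2 bases and GGACAG, it was found in 12 of 32851 promoters (0.0365%), 9 of them of the genes compared here (0.0678%). It stood in 6 of 2410 promoters of genes higher in PN (0.249%), in 0 of 3316 of lower genes and in 3 of 7552 of genes not called (0.0397%). The 6 were those of Fam163b, Fbll1, Hrh3, Osbp2, Sptbn4 and Ttc9b, and the genes with an element that were not called were Lca5 and Ogdhl. Fbll1, related to fibrillarin, had 52.8, 47.6 and 55.2 FPKM in PN, against 0.0697, 0 and 0 FPKM in D0 (5.69 ± 0.24, adjusted p = 4.0e-11). Fam163b had 30.9, 28.1 and 17.0 FPKM in PN, against values listed at 0 in all D0 libraries. Both were at or near 0 in D0 and above 15 FPKM in all PN libraries. Their 250 bases before the start are shown because these genes were higher in PN and hold the element, in capitals, upstream of the start (RefSeq sequence, GRCm38.p6). The stretches are chr11:35798885-35799134 on the minus strand, with the element on the opposite strand from 188 to 174 bases upstream, and chr2:27142478-27142727 on the minus strand, with the element from 102 to 88 bases upstream. A match is a description, not a site or a cause.
Fbll1: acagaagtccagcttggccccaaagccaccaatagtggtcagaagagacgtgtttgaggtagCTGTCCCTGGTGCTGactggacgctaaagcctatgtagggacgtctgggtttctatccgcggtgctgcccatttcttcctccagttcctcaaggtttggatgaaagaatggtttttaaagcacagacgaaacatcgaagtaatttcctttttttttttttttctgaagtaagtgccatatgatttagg
Fam163b: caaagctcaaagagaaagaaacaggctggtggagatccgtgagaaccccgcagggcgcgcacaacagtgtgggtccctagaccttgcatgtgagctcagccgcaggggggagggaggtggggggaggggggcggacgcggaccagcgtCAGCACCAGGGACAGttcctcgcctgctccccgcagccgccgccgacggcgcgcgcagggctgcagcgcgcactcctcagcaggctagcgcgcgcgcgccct

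Axon guidance and adhesion genes were higher in 34 of 60, lower in 9 and not called in 17 (median 1.72). Efnb3, an ephrin that acts as a midline repellent, had 131, 113 and 98.6 FPKM in PN, against 0.8, 0.468 and 1.33 FPKM in D0 (5.96 ± 0.27, adjusted p = 7.7e-11). The adhesion molecule L1cam had 81.2, 81.7 and 50.2 FPKM in PN, against 0.192, 0.119 and 0.233 FPKM in D0 (5.90 ± 0.30, adjusted p = 2.7e-10). Both were at most 1.33 FPKM in D0. The netrin receptors Dcc (2.80 ± 0.27) and Unc5a (4.18 ± 0.27) were higher, while their ligand Ntn1 was lower, at 1.47, 1.26 and 2.95 FPKM in PN, against 18.8, 23.7 and 29.1 FPKM in D0 (-3.13 ± 0.20, adjusted p = 3.5e-09). The Slit ligands were split: Slit1 changed by 3.45 ± 0.28, Slit2 by -1.12 ± 0.26 and Slit3 by -1.07 ± 0.28, with the receptor Robo1 higher (2.24 ± 0.37). Slit2 was not called without the first PN library, the second PN library or the third D0 library (changes of -0.95, -0.99 and -0.99), nor with equal totals or quantile normalization (-0.99 and -0.87). Slit3 was not called without the second PN library or the second D0 library (changes of -0.92 and -0.93), nor with equal totals or quantile normalization (-0.94 and -0.83). The semaphorin Sema3f was lower (-3.11 ± 0.26), while its receptor Nrp2 was higher (2.16 ± 0.48).

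Growth factor ligands and receptors were lower in 28 of 43, higher in 5 and not called in 10 (median -1.78). Among ligands, Cntf, the ciliary neurotrophic factor, had 0.764, 1.01 and 3.70 FPKM in PN, against 25.9, 80.8 and 53.8 FPKM in D0 (-4.27 ± 0.37, adjusted p = 7.7e-08). Bmp4 (-4.06 ± 0.45) and Tgfb3 (-3.86 ± 0.43) were lower as well, and Bdnf was not called, at 14.1, 4.61 and 16.1 FPKM in PN, against 5.61, 7.86 and 7.58 FPKM in D0. Among receptors, Egfr (-1.88 ± 0.21) and Fgfr3 (-2.01 ± 0.22) were lower, while Ntrk3, the receptor of neurotrophin 3, was higher, at 19.1, 14.2 and 15.9 FPKM in PN, against 0.975, 0.733 and 0.775 FPKM in D0 (3.24 ± 0.19, adjusted p = 9.0e-10). Ntrk2, the BDNF receptor, was not called, at 54.6, 51.3 and 50.4 FPKM in PN, against 41.3, 28.8 and 70.1 FPKM in D0, values that overlapped. The other higher genes were Ntf3, Gfra2, Erbb4 and Nrg3.

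**Figure D3:**
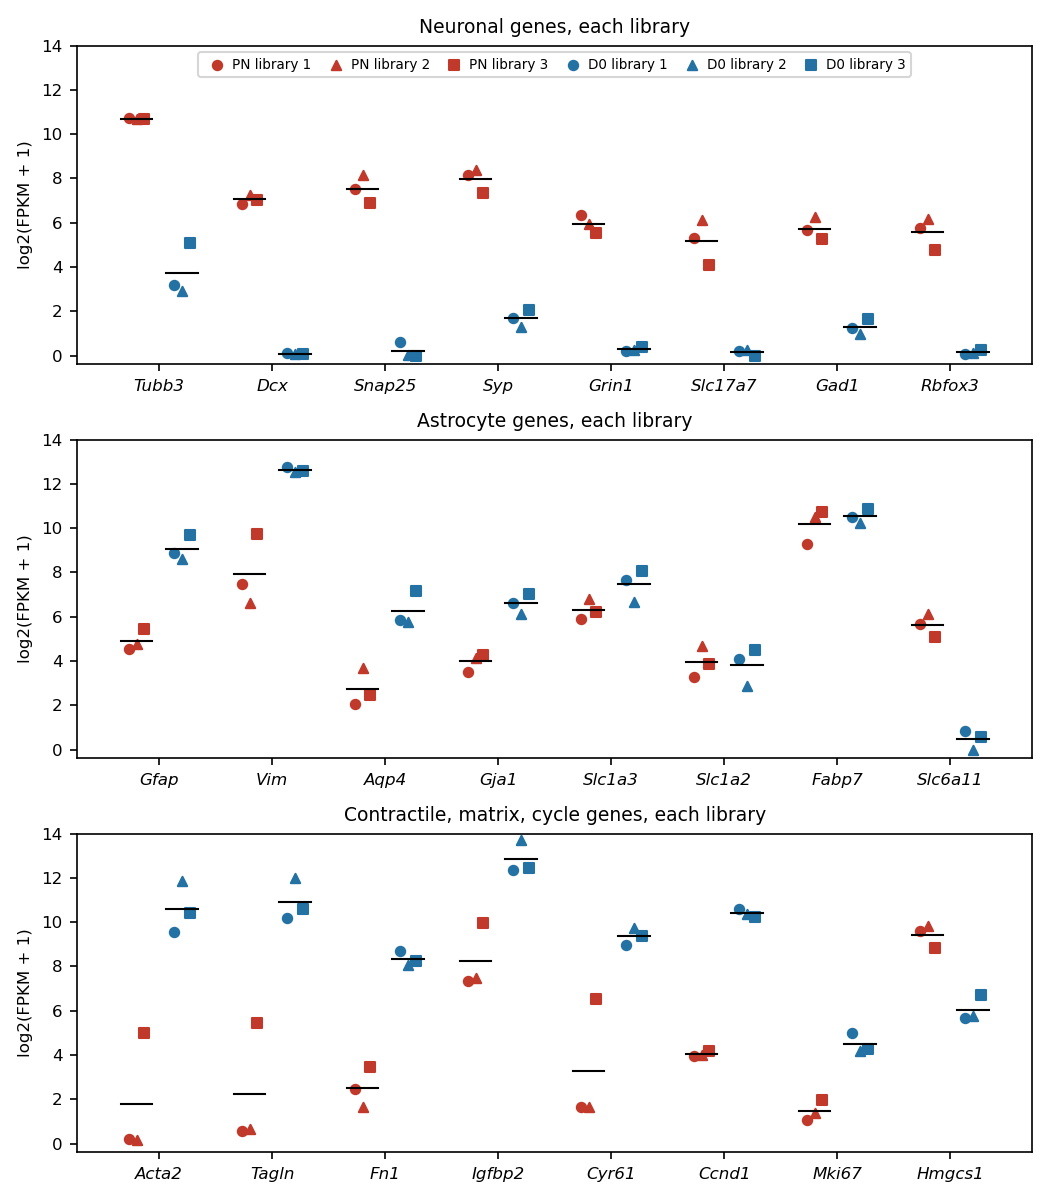
Level as log2(FPKM + 1) of 24 genes in each of the 3 PN libraries (red) and 3 D0 libraries (blue), with bars at the group means. The neuronal genes do not overlap between groups, while Slc1a2, Slc1a3 and Fabp7 do. Acta2, Tagln and Cyr61 are highest in the third PN library (square) among PN libraries while staying far below each D0 library.

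Astrocyte genes were not uniformly lower in PN. Of 25 transporter, junction and metabolic genes of astrocytes 14 were lower, 3 higher and 8 not called (median -1.18). Aldh1a1, a retinaldehyde dehydrogenase, had 0.135, 1.09 and 0.0577 FPKM in PN, against 37.9, 79.5 and 65.9 FPKM in D0 (-5.45 ± 0.32, adjusted p = 1.2e-09). Aqp4, the water channel of astrocyte endfeet, had 3.17, 11.9 and 4.52 FPKM in PN, against 56.4, 52.8 and 140.3 FPKM in D0 (-3.51 ± 0.38, adjusted p = 8.2e-07). Gja1, connexin 43, averaged 15.2 ± 4.30 FPKM in PN and 99.2 ± 30.8 FPKM in D0 (-2.62 ± 0.29, adjusted p = 1.2e-06). The glutamate transporters had smaller changes. Slc1a3 had 58.6, 109.7 and 72.7 FPKM in PN, against 200.1, 99.9 and 266 FPKM in D0 (-1.16 ± 0.39, adjusted p = 0.017), where the second PN library lay above the lowest D0 library. Slc1a3 was not called without the first PN library, the first D0 library or the third D0 library (changes of -0.96, -1.06 and -0.86). Slc1a2 was not called, at 8.56, 24.8 and 13.5 FPKM in PN, against 15.8, 6.20 and 21.8 FPKM in D0 (0.12 ± 0.39, adjusted p = 0.81). Glul, which makes glutamine, and Aldoc were not called either.

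The higher genes of this list included Slc6a11 and Acsl6. Acsl6 was not called without the first PN library, the second PN library or the second D0 library (changes of 0.99, 0.86 and 0.45), nor with no filter or in the 6 libraries alone (limma adjusted p of 0.055 and 0.086). Slc6a11, the GABA transporter GAT-3 that is known as an astrocyte gene, had 49.4, 69.5 and 33.4 FPKM in PN, against 0.806, 0 and 0.476 FPKM in D0 (5.16 ± 0.28, adjusted p = 4.3e-10). No D0 library reached 1 FPKM. In D0 the third library was the highest for 21 of the 25 genes, and in PN the second was the highest for 17.

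Of 29 filament, surface and secreted genes of astrocytes 21 were lower, 1 higher and 7 not called (median -1.99). Gfap, the astrocyte intermediate filament (chr11:102887336-102897200), had 21.9, 25.9 and 43.1 FPKM in PN, against 465, 383 and 832 FPKM in D0 (-4.14 ± 0.62, adjusted p = 2.8e-05). Vim, vimentin, had 177, 98.3 and 847 FPKM in PN, against 7012, 5953 and 6053 FPKM in D0 (-4.68 ± 0.55, adjusted p = 1.9e-06) and was among the most abundant genes of D0. Thbs1, a thrombospondin that promotes synapses, changed by -4.87 ± 0.65, and Sparc, a matrix protein, by -4.24 ± 0.57. For Vim, Thbs1 and Sparc the third PN library was far above the other PN libraries and below every D0 library. The higher gene was Hes5. Apoe, Cst3, Sparcl1, Ndrg2, Ntsr2, Nfia and Nfib were not called. Apoe, the main lipid carrier of the brain, had 281, 647 and 345 FPKM in PN, against 481, 572 and 1003 FPKM in D0.

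Genes of reactive astrocytes were lower in 25 of 32, higher in 1 and not called in 6 (median -2.92). Timp1, an inhibitor of matrix proteases (chrX:20870166-20874737), had 0.31, 0.562 and 1.23 FPKM in PN, against 494, 119 and 119 FPKM in D0 (-6.86 ± 0.86, adjusted p = 4.0e-06). The cytokine Clcf1 had 0.0603, 0.163 and 1.05 FPKM in PN, against 179, 146 and 108 FPKM in D0 (-6.71 ± 0.45, adjusted p = 4.5e-09). Cd44, the hyaluronan receptor, averaged 3.21 ± 1.24 FPKM in PN and 209 ± 36.7 FPKM in D0 (-5.67 ± 0.24). The reactive markers Lcn2, at 0.082, 0 and 3.17 FPKM in PN, against 1.01, 0.51 and 2.54 FPKM in D0, and Cxcl10 were not called. Fkbp5, induced by glucocorticoids, was the gene called higher (1.01 ± 0.20, adjusted p = 3.1e-04). Fkbp5 was not called without the first PN library, the third PN library, the second D0 library or the third D0 library (changes of 0.90, 0.97, 0.86 and 0.91). Without the third PN library 24 of the 32 were lower and 0 higher.

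Genes of smooth muscle and stress fibres had the lowest median change of the lists of functions. Of 21 that passed the filter 18 were lower, 0 higher and 3 not called (median -4.37). Acta2, smooth muscle actin (chr19:34240336-34255585), had 0.165, 0.13 and 31.2 FPKM in PN, against 749.8, 3761 and 1339 FPKM in D0 (-8.80 ± 0.95, adjusted p = 8.4e-07). Tagln, transgelin (chr9:45929628-45936058), had 0.469, 0.554 and 42.9 FPKM in PN, against 1154, 4024 and 1560 FPKM in D0 (-8.70 ± 0.94, adjusted p = 8.5e-07). In PN nearly all of this signal lay in the third library, and in D0 the second library was the highest for 20 of the 21 genes. Cnn1, calponin, had 0.0829, 0.0996 and 1.66 FPKM in PN, against 148, 618 and 216 FPKM in D0 (-7.53 ± 0.50, adjusted p = 3.9e-09). The myosin light chain Myl9 had 1.70, 1.86 and 22.9 FPKM in PN, against 426, 1307 and 539.8 FPKM in D0 (-6.88 ± 0.64, adjusted p = 1.6e-07). Srf, the transcription factor of these genes, and its coactivator Mkl1 were not called, with Srf at 14.1, 13.9 and 19.1 FPKM in PN, against 20.5, 33.5 and 29.2 FPKM in D0. Mural cell markers summed to 3.13 to 36.4 FPKM in PN and 767 to 3780 FPKM in D0, but without Acta2, itself a contractile gene, to at most 5.14 FPKM in PN and at least 17.0 FPKM in D0, and the mural marker Higd1b was at 0 in both groups. Their part in these results was not tested.

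SRF binds the CArG box, which was searched on both strands. It stood in 5 of 26 promoters of the listed contractile genes, those below the filter included (19.2%), those of Cnn2, Myl6, Myl9, Srf and Vcl, and in 535 of all 32851 promoters (1.63%). Cnn2, a calponin of non-muscle cells, had 3.14, 1.87 and 27.3 FPKM in PN, against 483, 940.3 and 556 FPKM in D0 (-6.51 ± 0.58, adjusted p = 1.1e-07). Its 250 bases before the start are shown for the palindromic CArG box (capitals) from 56 to 47 bases upstream, chr10:79988350-79988599 on the plus strand (RefSeq, GRCm38.p6).
Cnn2: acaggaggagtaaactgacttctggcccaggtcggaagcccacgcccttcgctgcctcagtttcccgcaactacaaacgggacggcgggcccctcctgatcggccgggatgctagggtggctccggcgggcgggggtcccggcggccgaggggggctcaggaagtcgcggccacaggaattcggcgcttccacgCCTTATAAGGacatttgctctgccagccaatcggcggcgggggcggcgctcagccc

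Matrix genes were also lower. Of 38 collagen and matrix genes 34 were lower, 1 higher and 3 not called (median -3.63). Spp1, osteopontin, had 0.455, 1.56 and 6.57 FPKM in PN, against 848, 154 and 135 FPKM in D0 (-6.43 ± 0.84, adjusted p = 6.6e-06). Fmod, the collagen-binding fibromodulin, had 0.128, 0.444 and 4.84 FPKM in PN, against 111, 334 and 143 FPKM in D0 (-6.37 ± 0.63, adjusted p = 3.4e-07). Col1a1, a chain of type I collagen, had 0.31, 0.192 and 1.49 FPKM in PN, against 65.7, 202 and 133 FPKM in D0 (-6.28 ± 0.44, adjusted p = 7.6e-09). No PN library overlapped a D0 library for any of them. Igfbp2, which binds insulin-like growth factors and had the second-highest mean level in D0, had 162, 178 and 993 FPKM in PN, against 5261, 13170.0 and 5540 FPKM in D0 (-4.57 ± 0.57, adjusted p = 4.3e-06). Fn1, fibronectin, averaged 5.57 ± 4.07 FPKM in PN and 329 ± 78.9 FPKM in D0. Dcn, decorin, was the gene called higher, at 3.67, 1.93 and 1.98 FPKM in PN, against 0.454, 0.63 and 0.591 FPKM in D0 (1.15 ± 0.21, adjusted p = 1.9e-04). Dcn was not called without the first PN library (change of 0.93). The third PN library was the highest PN library for 34 of the 38 genes.

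Integrins, laminins and targets of the YAP and TEAD factors were lower in 23 of 26, higher in 1 and not called in 2 (median -3.65). Cyr61, a secreted YAP target, had 2.16, 2.12 and 91.0 FPKM in PN, against 500.3, 837 and 665 FPKM in D0 (-6.08 ± 0.91, adjusted p = 2.5e-05). Ctgf, of the same family, had 0.623, 0.58 and 22.0 FPKM in PN, against 125, 346 and 225 FPKM in D0 (-5.79 ± 0.81, adjusted p = 1.4e-05). In both, the third PN library was far above the other PN libraries and below every D0 library. Yap1 itself averaged 3.12 ± 1.85 FPKM in PN and 48.4 ± 3.36 FPKM in D0 (-3.67 ± 0.25), and Itgb1, the shared integrin beta chain, 35.4 ± 13.2 FPKM in PN and 605 ± 110.4 FPKM in D0 (-4.10 ± 0.21). Nf2, an upstream inhibitor of YAP, was higher (1.05 ± 0.15, adjusted p = 1.7e-05). Nf2 was not called without the first PN library (change of 0.92).

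Cell cycle genes were lower almost throughout: 48 of 50 were lower in PN, 0 higher and 2, Cdk4 and E2f2, not called (median -2.73). Ccnd1, cyclin D1 (chr7:144929931-144939831), had 14.5, 15.1 and 17.3 FPKM in PN, against 1546, 1304 and 1194 FPKM in D0 (-6.34 ± 0.19, adjusted p = 2.2e-12). Tk1, the thymidine kinase of S phase, averaged 1.88 ± 0.795 FPKM in PN and 50.4 ± 6.92 FPKM in D0, and Ccnb2, a mitotic cyclin, 3.23 ± 0.666 FPKM in PN and 58.6 ± 9.64 FPKM in D0. Mki67, the Ki-67 antigen of cycling cells, had 1.07, 1.57 and 2.92 FPKM in PN, against 30.6, 17.0 and 18.2 FPKM in D0 (-3.01 ± 0.26, adjusted p = 7.7e-08). Levels in PN were low but not 0 in any library for these genes, and the third PN library was the highest PN library for 45 of the 50.

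The CHR element of late cell cycle genes, TTTGAA, was searched on both strands. It stood in 20 of 44 promoters of the cell cycle genes (45.5%) and in 17.9% of all promoters. Over all genes compared it stood in 14.1% of promoters of lower genes, 9.46% of higher genes and 11.1% of those not called. Cdc20, an activator of the anaphase-promoting complex, had 7.37, 7.35 and 12.04 FPKM in PN, against 105, 102 and 73.9 FPKM in D0 (-3.27 ± 0.28, adjusted p = 7.5e-08). Cdk1, the mitotic kinase, had 3.11, 4.11 and 5.87 FPKM in PN, against 56.3, 54.1 and 44.0 FPKM in D0 (-3.31 ± 0.27, adjusted p = 3.7e-08). Their 250 bases before the start are shown with the element in capitals (RefSeq, GRCm38.p6): chr4:118437344-118437593 on the minus strand, from 18 to 13 bases upstream, and chr10:69352913-69353162 on the minus strand, from 71 to 66 and from 15 to 10 bases upstream.
Cdc20: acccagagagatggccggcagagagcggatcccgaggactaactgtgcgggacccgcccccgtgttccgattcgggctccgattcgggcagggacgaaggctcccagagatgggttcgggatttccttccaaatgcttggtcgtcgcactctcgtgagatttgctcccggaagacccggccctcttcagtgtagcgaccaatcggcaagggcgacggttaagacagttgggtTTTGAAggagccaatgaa
Cdk1: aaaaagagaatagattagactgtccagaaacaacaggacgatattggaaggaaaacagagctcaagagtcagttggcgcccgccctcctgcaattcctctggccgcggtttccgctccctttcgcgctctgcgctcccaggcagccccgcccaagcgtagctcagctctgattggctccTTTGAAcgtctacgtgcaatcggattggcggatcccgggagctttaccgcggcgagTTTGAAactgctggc

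Of 27 cell cycle inhibitors and p53 targets 15 were lower, 1 higher and 11 not called (median -1.28). Cdkn2a, the locus of p16 and p19ARF, had 0.29, 0.724 and 1.60 FPKM in PN, against 51.4, 40.2 and 37.1 FPKM in D0 (-4.60 ± 0.30, adjusted p = 3.9e-09). Its neighbour Cdkn2b had 0.974, 1.07 and 3.11 FPKM in PN, against 60.4, 45.6 and 51.0 FPKM in D0 (-4.37 ± 0.30, adjusted p = 5.3e-09). The p53 target Gadd45a changed by -3.86 ± 0.34 and Cdkn1a, p21, by -2.14 ± 0.19. The higher gene was Cdkn1c, p57, at 15.1, 2.60 and 31.6 FPKM in PN, against 0.901, 9.13 and 1.75 FPKM in D0 (1.72 ± 0.64, adjusted p = 0.028). Its groups overlapped. Cdkn1c was not called without the first PN library, the third PN library, the first D0 library or the third D0 library (changes of 1.53, 1.02, 1.23 and 1.49), nor with no filter or in the 6 libraries alone (limma adjusted p of 0.054 and 0.10). Cdkn1b, p27, was not called, at 47.0, 49.4 and 73.1 FPKM in PN, against 51.6, 56.8 and 66.2 FPKM in D0.

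Energy metabolism differed by pathway. Of 27 glycolysis and lactate genes 10 were lower, 4 higher and 13 not called (median -0.78). Hk2, a hexokinase of proliferating cells, had 1.11, 0.324 and 1.43 FPKM in PN, against 11.2, 13.6 and 11.5 FPKM in D0 (-2.79 ± 0.49, adjusted p = 1.2e-04). Pdk4, which restrains pyruvate oxidation, averaged 0.637 ± 0.256 FPKM in PN and 13.8 ± 4.68 FPKM in D0 (-3.13 ± 0.22). The higher genes were Eno2, Slc2a3, Slc16a7 and Pfkfb2. Slc2a3 was not called without the first PN library or the second D0 library (changes of 0.83 and 0.59). Pfkfb2 was not called without the third PN library or the second D0 library (changes of 0.9996 and 0.84). Among the higher genes, Eno2, the neuronal enolase, changed by 1.70 ± 0.27 and Slc16a7, a monocarboxylate transporter of neurons, by 1.99 ± 0.17. Of 37 nuclear genes of the respiratory chain 36 were not called, 0 were higher and 1 was lower (median 0.13). Cox7a1, the muscle isoform of a cytochrome oxidase subunit, was the lower one, at 0.516, 13.6 and 5.90 FPKM in PN, against 47.4, 22.8 and 46.3 FPKM in D0 (-2.83 ± 0.63, adjusted p = 0.0011). Of 42 ribosomal protein genes 0 were called (limma, median -0.17), against 3 at an unadjusted p below 0.05. Without the first PN library or the second D0 library, or with equal totals or quantile normalization, 1 was called higher.

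Sterol and fatty acid synthesis genes were higher in 23 of 34, lower in 3 and not called in 8 (median 1.43). Hmgcs1, the HMG-CoA synthase at the entry to cholesterol synthesis (chr13:119690351-119708260), had 775, 905 and 459.7 FPKM in PN, against 49.2, 53.1 and 103 FPKM in D0 (3.39 ± 0.30, adjusted p = 8.5e-08). Mvd, the mevalonate decarboxylase, had 155, 138 and 56.1 FPKM in PN, against 12.7, 13.9 and 16.3 FPKM in D0 (2.82 ± 0.34, adjusted p = 2.4e-06). The third library was the lowest in PN and the highest in D0 for both, without overlap. Fabp3, a fatty acid binding protein, averaged 227 ± 60.8 FPKM in PN and 8.23 ± 2.91 FPKM in D0 (4.63 ± 0.41), and Srebf2, the regulator of the pathway, 87.7 ± 4.36 FPKM in PN and 34.5 ± 6.46 FPKM in D0 (1.33 ± 0.24). The lower genes were the cholesterol exporter Abca1 (-2.81 ± 0.62, adjusted p = 9.9e-04), Srebf1 (-1.36 ± 0.24, adjusted p = 1.1e-04) and Elovl5 (-1.09 ± 0.15, adjusted p = 9.8e-06). Elovl5 was not called without the third D0 library (change of -0.96), nor with equal totals (-0.95).

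The sterol regulatory element, TCACNCCAC on either strand, stood in 1 of 29 promoters of this list (3.45%) and in 408 of all 32851 (1.24%). It was that of Hmgcs1, whose 250 bases before the start are shown with the element in capitals, from 137 to 129 bases upstream: chr13:119690101-119690350 on the plus strand (RefSeq, GRCm38.p6).
Hmgcs1: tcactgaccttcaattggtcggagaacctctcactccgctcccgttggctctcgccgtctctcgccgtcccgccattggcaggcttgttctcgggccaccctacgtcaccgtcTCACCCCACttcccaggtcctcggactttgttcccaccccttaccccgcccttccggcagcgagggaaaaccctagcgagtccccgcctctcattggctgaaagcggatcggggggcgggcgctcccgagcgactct

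Lysosomal genes were lower in 21 of 32, higher in 1 and not called in 10 (median -1.65). Ctsz, a cathepsin, had 4.49, 6.501 and 10.04 FPKM in PN, against 179, 129 and 137 FPKM in D0 (-4.26 ± 0.21, adjusted p = 2.2e-10). Ctsd, the main aspartic protease of lysosomes, averaged 141 ± 9.68 FPKM in PN and 1082 ± 132 FPKM in D0 (-2.93 ± 0.19), and the tetraspanin Cd63 89.9 ± 23.2 FPKM in PN and 859.5 ± 49.4 FPKM in D0 (-3.28 ± 0.23). Atp6v1a, a subunit of the proton pump shared with synaptic vesicles, was the higher gene, at 144, 169 and 136 FPKM in PN, against 58.3, 48.3 and 64.5 FPKM in D0 (1.38 ± 0.16, adjusted p = 1.7e-06). The microglial marker sums were 21.2 to 26.0 FPKM in PN and 53.4 to 84.8 FPKM in D0, and their part in the lysosomal results was not tested.

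Interferon-induced and MHC class I genes were lower in 18 of 27, higher in 0 and not called in 9 (median -1.50). Without the third PN library 22 of the 27 were lower. Bst2, tetherin, had 3.96, 3.79 and 29.1 FPKM in PN, against 154, 201 and 132 FPKM in D0 (-4.17 ± 0.52, adjusted p = 4.1e-06). B2m, the light chain of MHC class I, had 50.6, 51.4 and 113 FPKM in PN, against 406, 369.6 and 320.5 FPKM in D0 (-2.43 ± 0.31, adjusted p = 5.2e-06). Tap2, a peptide transporter of antigen presentation, averaged 1.39 ± 0.371 FPKM in PN and 21.3 ± 0.488 FPKM in D0 (-3.23 ± 0.21), while its partner Tap1 was not called, at 5.32, 4.01 and 5.98 FPKM in PN, against 8.32, 8.19 and 7.21 FPKM in D0. The class I heavy chain H2-D1 was not called either, at 71.1, 40.0 and 63.8 FPKM in PN, against 34.8, 41.6 and 49.5 FPKM in D0, and like other class I genes it has near copies between which reads can be split.

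The interferon-stimulated response element, GAAA, any 2 bases and GAAA on either strand, stood in 13 of 30 promoters of this list (43.3%) and in 1131 of all 32851 (3.44%). The promoters of Bst2 and B2m are shown with the element in capitals (RefSeq, GRCm38.p6): chr8:71537473-71537722 on the minus strand, with overlapping matches from 130 to 121 and from 124 to 115 bases upstream, and chr2:122147437-122147686 on the plus strand, from 139 to 130 bases upstream.
Bst2: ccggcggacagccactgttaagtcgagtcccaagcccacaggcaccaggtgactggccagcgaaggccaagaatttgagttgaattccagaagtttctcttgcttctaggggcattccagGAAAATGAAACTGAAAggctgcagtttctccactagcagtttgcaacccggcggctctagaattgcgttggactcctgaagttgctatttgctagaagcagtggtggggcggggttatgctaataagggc
B2m: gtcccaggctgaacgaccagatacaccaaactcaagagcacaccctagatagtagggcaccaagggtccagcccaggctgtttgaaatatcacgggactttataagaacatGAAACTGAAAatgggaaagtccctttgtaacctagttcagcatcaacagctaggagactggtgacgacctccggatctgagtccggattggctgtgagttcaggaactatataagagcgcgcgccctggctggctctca

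Immediate-early and activity-regulated genes were split, with 6 of 36 higher, 14 lower and 16 not called (median -0.30). Without the second PN library, the lowest PN library for 29 of the 36, the counts were 10 higher and 13 lower and the median was 0.11. Nr4a3, a nuclear receptor induced by activity, had 56.0, 33.3 and 59.6 FPKM in PN, against 0.695, 1.001 and 0.602 FPKM in D0 (4.80 ± 0.28, adjusted p = 1.1e-09). The granin Scg2 had 175, 43.2 and 104 FPKM in PN, against 0.903, 1.30 and 6.42 FPKM in D0 (4.87 ± 0.52, adjusted p = 6.9e-07). Both were above every D0 library. Fos was not called, at 19.5, 1.66 and 31.5 FPKM in PN, against 6.32, 19.7 and 19.1 FPKM in D0, and its PN values ran on either side of D0. Dusp1, a phosphatase of MAP kinases, had 13.6, 7.06 and 29.0 FPKM in PN, against 83.0, 211 and 113 FPKM in D0 (-3.06 ± 0.44, adjusted p = 1.6e-05). Ier3, an early response gene, had 5.99, 1.32 and 13.8 FPKM in PN, against 85.5, 75.5 and 85.7 FPKM in D0 (-3.74 ± 0.47, adjusted p = 4.4e-06).

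Stress, antioxidant and metallothionein genes were lower in 19 of 39, higher in 4 and not called in 16 (median -0.89). Gpx3, a secreted glutathione peroxidase, had 2.74, 2.48 and 1.71 FPKM in PN, against 175, 79.6 and 143 FPKM in D0 (-5.28 ± 0.52, adjusted p = 2.8e-07). Hmox1, heme oxygenase, had 9.75, 16.1 and 25.03 FPKM in PN, against 337, 216 and 261 FPKM in D0 (-3.99 ± 0.33, adjusted p = 3.8e-08). The metallothioneins Mt1 (-1.97 ± 0.39), Mt2 (-1.80 ± 0.48) and Mt3 (-3.06 ± 0.43) were lower. The higher genes were Asns, Chac1, Atf4 and Hspa1b, the first 3 of the ATF4 pathway of amino acid stress. Atf4 was not called without the first PN library, the third PN library, the first D0 library or the third D0 library (changes of 0.97, 0.74, 0.89 and 0.98). Asns, the asparagine synthetase, had 185, 76.8 and 210.1 FPKM in PN, against 27.3, 30.1 and 19.98 FPKM in D0 (2.46 ± 0.28, adjusted p = 1.6e-06), and the second PN library was the lowest of PN for it. Hspa1b and its near copy Hspa1a can share reads. Hspa1b was not called without the first PN library or the first D0 library (changes of 0.83 and 0.98).

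Factors of brain regions were compared next. Lhx2, a factor of the cortical primordium, was not called, at 89.3, 96.4 and 92.0 FPKM in PN, against 70.0, 94.1 and 84.3 FPKM in D0. Emx1, of the dorsal cortex, was higher in PN, at 30.9, 34.02 and 29.3 FPKM in PN, against 0.378, 0.198 and 0.117 FPKM in D0 (4.72 ± 0.22, adjusted p = 9.5e-11). Of 51 regional factors 19 passed the filter, with 12 lower, 1 higher and 6 not called (median -1.57), and the Hox genes of hindbrain and spinal cord were near 0, the highest means being 0.0520 FPKM for Hoxb9 in PN and 0.0176 FPKM for Hoxa3 in D0. Six3 and Nkx2-1, which pattern the ventral forebrain, were lower in PN. Nkx2-1 varied in D0, at 0.524, 0.771 and 0.662 FPKM in PN, against 3.50, 2.31 and 13.3 FPKM in D0.

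**Figure D4:**
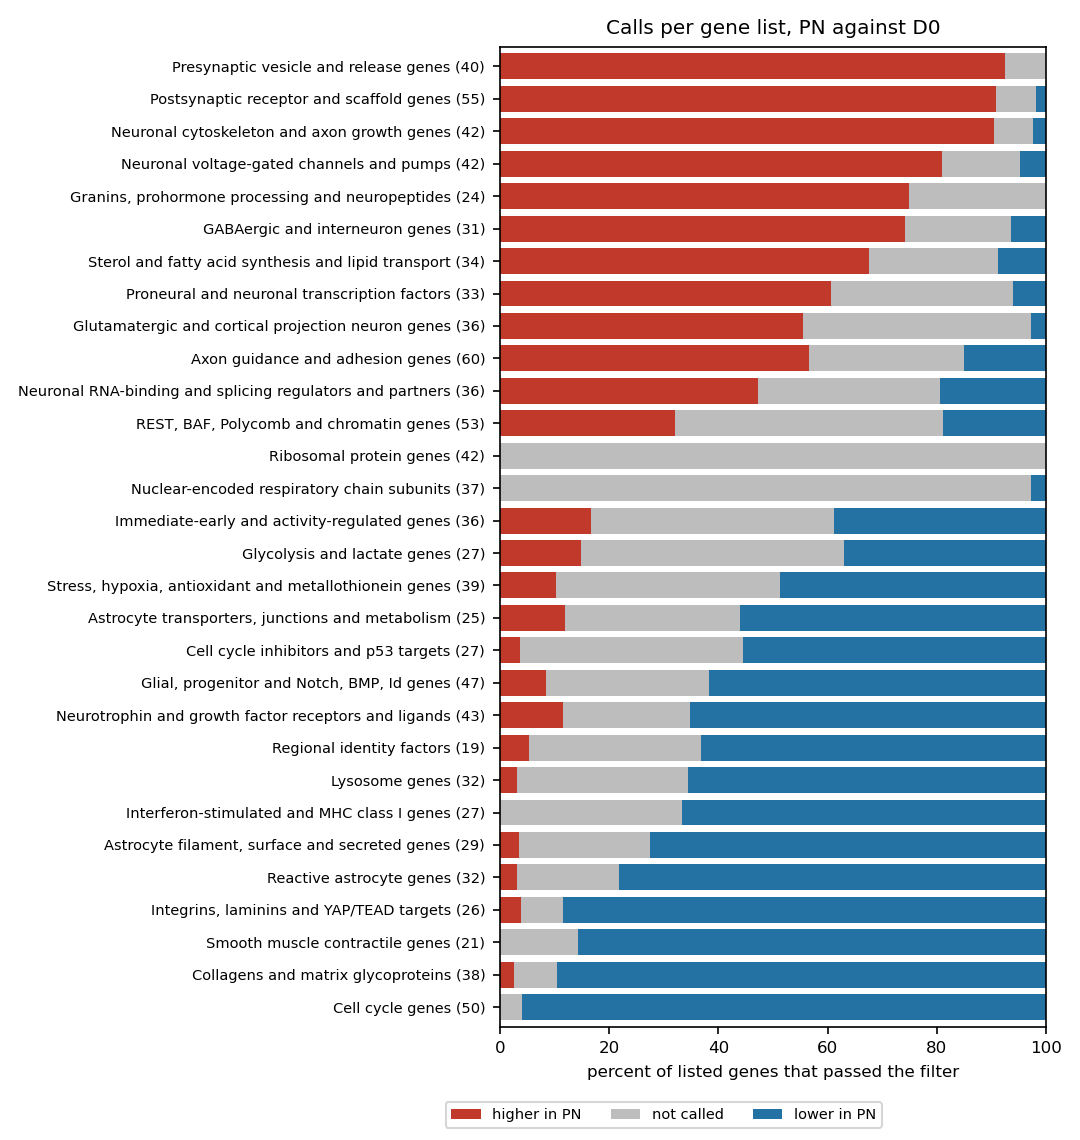
Share of the genes of each list that were higher in PN (red), not called (grey) or lower in PN (blue), with the number of genes that passed the filter in parentheses. Presynaptic genes stand at the top (37 of 40 higher) and cell cycle genes at the bottom (48 of 50 lower), with ribosomal and respiratory chain genes almost wholly grey.

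Within gene families, the share of each relative often differed between the groups. In 34 pairs of related genes, the first was the one taken as neuronal or more neuronal. That order means little in pairs such as Slc17a7 and Slc17a6, both near 0 in D0 and both higher in PN. Of the 34 pairs, 15 had the first gene higher and the other lower in PN. In 9 the first was higher and the other not called, and 5 had both higher. In 2 pairs the first was lower and in 3 it was not called. Snap25 made up 96.9 to 99.1% of the summed Snap25 and Snap23 level in PN and 0 to 2.29% in D0. Tubb3 made up 99.2 to 99.6% of its sum with Tubb6 in PN and 1.69 to 11.6% in D0. Tubb6, a tubulin of non-neuronal cells, was itself lower, at 6.41, 7.23 and 12.6 FPKM in PN, against 278, 385 and 248 FPKM in D0 (-4.99 ± 0.27, adjusted p = 5.3e-10). In both of these pairs the groups did not overlap. The same direction was found for Vamp2 and Vamp3, vesicle SNAREs, at 91.3 to 97.4% Vamp2 in PN and 36.2 to 45.8% in D0, and for the kinase subunits Camk2b and Camk2d, at 94.1 to 95.6% Camk2b in PN and 5.79 to 25.3% in D0.

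Ptbp2 made up 67.9 to 86.9% of its sum with Ptbp1 in PN and 7.24 to 12.03% in D0. Eno2 made up 11.1 to 25.7% of its sum with Eno1 in PN and 1.35 to 1.80% in D0, so the widely expressed enolase Eno1 stayed the more abundant one, at 355, 219 and 275 FPKM in PN, against 1144, 1225 and 1041 FPKM in D0. Pfkp and Aldoa, the first genes of 2 glycolytic pairs, were lower in PN (-1.95 ± 0.21 and -1.27 ± 0.20). The stathmin pair ran the other way: Stmn2 made up 25.4 to 36.9% of its sum with Stmn1 in PN and 55.2 to 64.5% in D0, with Stmn1 at 2635, 2647 and 2680 FPKM in PN, against 202, 208 and 175 FPKM in D0.

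**Figure D5:**
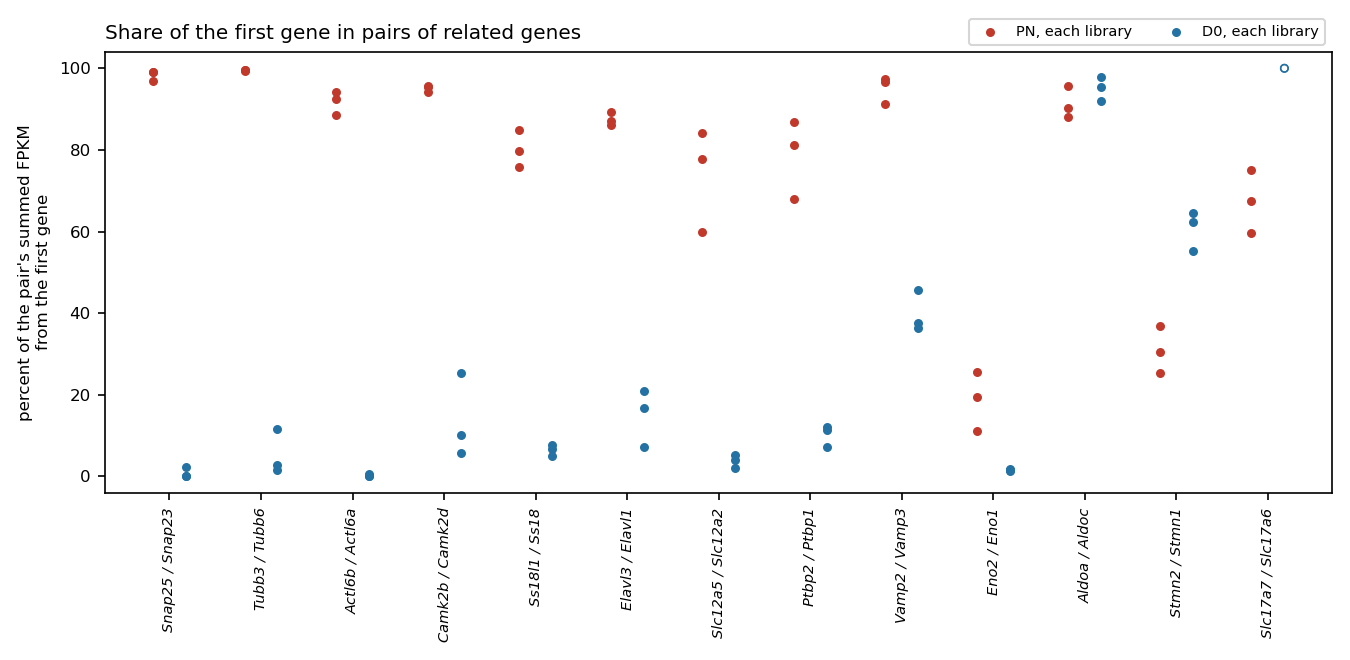
Percent of the summed FPKM of the 13 gene pairs with both genes named in the text that came from the first gene of each pair, in each PN library (red, left) and each D0 library (blue, right), ordered by the difference, with open points where the sum was under 1 FPKM. The leftmost pairs have almost opposite shares (Snap25 at 96.9 to 99.1% in PN and 0 to 2.29% in D0), and in the rightmost the shares lie close or run the other way. For Slc17a7 and Slc17a6 the D0 shares rest on only 0.163 and 0.179 FPKM of Slc17a7. The third D0 library has no share for this pair, as both genes were at 0 there.

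Higher genes were longer. The annotated span of genes higher in PN had a median of 34.2 kb, against 24.3 kb for lower genes and 22.4 kb for those not called. Spans of at least 100 kb made up 26.7% of higher genes, 14.1% of lower genes and 11.8% of those not called. Promoters of changed genes held fewer CpG pairs for their base composition, with a median observed-to-expected ratio of 0.688 for higher and 0.679 for lower genes, against 0.801 for those not called. GC content of higher, lower and uncalled genes had medians of 61.7, 60.7 and 61.3%. These are descriptions over genes, which are not replicates.

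Xist, the RNA that silences the second X chromosome, had 29.0, 21.9 and 30.2 FPKM in PN, against 11.5, 9.51 and 8.23 FPKM in D0 (1.38 ± 0.35, adjusted p = 0.0028). The Y-linked genes Ddx3y, Eif2s3y, Kdm5d and Uty were detected in all 6 libraries and were not called, with Eif2s3y at 11.2, 35.8 and 26.6 FPKM in PN, against 24.0, 12.9 and 29.8 FPKM in D0. Xist and Y-linked RNA were thus found together in all 6 libraries.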

How the data were processed

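The authors deposited 1 table of FPKM values, with 24346 gene symbols and 15 libraries. The build was mm10 (GRCm38), per the submitters' processing notes. Aligner, quantification tool, annotation and strand setting are not given in the sources used here, so reads of near copies, overlapping genes and antisense partners may be shared. Libraries were grouped by the cell type label, 3 for each of 5 groups. Read totals are not in the table, so the depth is known only relative to the first PN library.

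Tests ran on log2(FPKM + 1). They covered 13983 genes, those at 1 FPKM or above in 3 or more of all 15 libraries. Group means were fitted in R 4.3.3 with limma 3.58.1, with a variance trend and 10 residual degrees of freedom, and p-values were adjusted by Benjamini-Hochberg over all genes tested. The call threshold was an adjusted p of 0.05 together with an absolute change of 1 (log2). The fit was checked on simulated data with known changes.

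The genes compared, the 42 lists (31 of functions and 11 of cell type markers, 1228 symbols, 1221 in the table, some in several lists) and the 34 pairs were chosen with earlier results of these data known. Gene positions (12965 of 12998 matched) and promoters, 250 bases before to 50 after the start, are from RefSeq for GRCm38.p6. Promoters were at hand for 10319 of the genes. Named genes were the 10 with the largest changes each way without overlap, up to 4 called genes of each list in its main direction and 3 in the other, all pairs, the 10 most abundant per group, a panel of markers and genes of large spread. Others, such as uncalled genes, receptor partners and genes with a printed promoter, were named after their values were seen. Some genes that the rule names are not reported here.

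Replicate numbers were checked as pairs: deviations of PN and D0 libraries of the same number correlated at 0.153, -0.135 and -0.07. Those of different numbers correlated at -0.139 to 0.184. With so few libraries this check cannot tell whether the numbers pair the libraries, and the main fit treated them as unpaired. Alternatives were other pseudocounts, filters and scalings, the 6 libraries alone, a replicate block, no variance trend, no minimum on the change and each library left out in turn. Tables and figures used Python 3.11.15, pandas 2.3.3, numpy 2.4.6 and matplotlib 3.10.9.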

Additional observations from a re-analysis of the deposited data

How the results depend on the processing

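The 5637 calls became 8785 with no minimum on the change, 3815 higher and 4970 lower. Under pseudocounts of 0.1 and 0.01 there were 2563 higher and 3574 lower, and 2559 higher and 3555 lower. With no filter there were 2341 higher and 3277 lower, and with a filter at 5 FPKM 1933 higher and 2750 lower. In the 6 libraries alone there were 2344 higher and 3275 lower. Leaving out each library in turn gave 2266 to 2449 higher and 3212 to 3385 lower. With the replicate number as a block 2352 were higher and 3290 lower, though it is not known whether the numbers pair the libraries. Of 656 list counts over these alternatives 640 stayed within 1.5 times. The exceptions in lists of functions were chromatin genes (41 called) and respiratory chain genes (6 called) with no minimum on the change, and ribosomal genes (1 called). The other exceptions were small marker lists. Immediate-early genes had a median of 0.11 without the second PN library, against -0.30 with all libraries. Gene spans were 1.41 times longer in higher than in lower genes, and 1.80 times at changes of at least 2. Among the genes named above, 265 were followed through the alternatives. Of these, 216 were called, 17 of the called genes lost the call under at least 1 of 16 alternatives and 0 reversed. The relative depth of D0, 0.449 to 0.793, limits low values most. Of the 49 named genes without a call, 17 were called under at least 1 alternative, 9 of them under one other than dropping the minimum on the change, and 18 changed sign: leaving out single libraries gave changes of Aldoc -0.71 to 0.12, Arc -0.25 to 0.25, Cdkn1b -0.26 to 0.053, Eif2s3y -0.27 to 0.53, Elavl1 -0.062 to 0.091, Fabp7 -0.64 to 0.077, Fos -0.98 to 0.83, Grik5 -0.019 to 0.25, Nfib -0.58 to 0.044, Nptx1 -0.27 to 1.46, Ntrk2 -0.047 to 0.58, Ogdhl -0.47 to 0.25, Slc1a2 -0.36 to 0.47, Sparcl1 -0.45 to 0.93, Sptan1 -0.13 to 0.15, Syt11 -0.16 to 0.55, Unc13b -0.039 to 0.28, and the sign also turned with pseudocount 0.01 Arc -0.0025, and with equal totals Cdkn1b 0.082, Ogdhl 0.088, Sptan1 0.12, and with quantile normalization Cdkn1b 0.049, Lca5 0.054, Ogdhl 0.086, Sptan1 0.11.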

Other observations

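Several genes outside the lists differed strongly and are given as values chosen after they were seen. In PN, the activators of the kinase CDK5 were higher: Cdk5r1 had 158, 149.9 and 131 FPKM in PN, against 1.85, 0.605 and 2.25 FPKM in D0 (5.90 ± 0.22, adjusted p = 1.1e-11), and Cdk5r2 averaged 92.9 ± 41.2 FPKM in PN and 0.205 ± 0.0526 FPKM in D0 (6.17 ± 0.27). Hpca, the neuronal calcium sensor hippocalcin, had 35.7, 169.9 and 27.1 FPKM in PN, against values listed at 0 in all D0 libraries. Vsnl1, visinin-like protein 1, had 205, 264 and 43.7 FPKM in PN, against 0.988, 0.0718 and 1.08 FPKM in D0 (6.36 ± 0.49, adjusted p = 2.0e-08). The second PN library was the highest for both and the third the lowest. Camkv, a kinase-like synaptic protein, changed by 6.98 ± 0.26, and Nsg2, an endosomal protein of neurons, by 6.49 ± 0.50.

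The annexin genes Anxa1, Anxa2 and Anxa3, whose products bind membranes, changed by -6.55 ± 0.34, -5.67 ± 0.48 and -6.75 ± 0.45. Lgals1, galectin 1, had 24.3, 27.6 and 64.4 FPKM in PN, against 4139, 4858 and 2841 FPKM in D0 (-6.73 ± 0.40, adjusted p = 1.5e-09). Cryab, a small heat shock protein of glia, averaged 26.9 ± 30.8 FPKM in PN and 1100 ± 541 FPKM in D0. Shh, the ventral patterning signal, had 0.554, 0.516 and 0.298 FPKM in PN, against 65.8, 24.8 and 96.5 FPKM in D0 (-5.25 ± 0.39, adjusted p = 1.4e-08), and its D0 libraries ranked in the same order as for Nkx2-1. Npvf, a hypothalamic peptide gene, had 0, 1.05 and 1.31 FPKM in PN, against 59.6, 59.1 and 239 FPKM in D0 (-5.83 ± 0.42, adjusted p = 1.0e-08).

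Of 324 long noncoding RNAs 85 were higher in PN, 65 lower and 174 not called. Over all 12998 genes 18.1% were higher and 25.3% lower, or 43.4% in all, so a total of calls of this size is not particular to them. More of them were higher than lower, whereas over all genes more were lower. Rian, from the same imprinted region as Meg3, had 165, 245 and 192 FPKM in PN, against 12.8, 22.3 and 13.1 FPKM in D0 (3.58 ± 0.25, adjusted p = 7.5e-09). Meg3 averaged 85.7 ± 33.6 FPKM in PN and 8.51 ± 1.34 FPKM in D0 (3.11 ± 0.41), and Miat, expressed in neurons, 21.3 ± 8.73 FPKM in PN and 0.578 ± 0.612 FPKM in D0 (3.80 ± 0.34). Neat1, the scaffold of paraspeckles, had 0.601, 1.10 and 1.70 FPKM in PN, against 75.2, 47.2 and 96.1 FPKM in D0 (-5.09 ± 0.56, adjusted p = 9.4e-07). Six3os1 was lower (-4.71 ± 0.30), as was Six3, with which it may share reads.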
